A study of Mus musculus with 6 samples.

Results

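Plagl1, a zinc finger transcription factor gene, and 9 further imprinted genes of the growth network around it (Igf2, H19, Igf2r, Cdkn1c, Grb10, Dlk1, Peg3, Mest and Ndn) were followed across 6 arrays of mouse skin. The members were taken by gene symbol, which gave 17 of the 12422 probe sets that are not controls. A probe set is a group of short oligonucleotides that together measure 1 transcript. Of the 10 genes 9 had at least 1 probe set of their own, out of 8251 genes named on the array. H19 had none of its own, since its probe set, 93028_at, was listed for H19 and for the microRNA gene Mir675, which the RefSeq table places inside H19. That probe set is therefore called H19/Mir675 here. The genes were chosen by symbol, with the measured difference between the 2 kinds of skin already known, so the members' values in that comparison are a description and test nothing.

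The series compared total skin of FVB mice (an inbred albino strain) with that of GC13 mice, a transgenic line that overexpresses the homeobox gene Hoxc13, both at 5 days after birth. Each group had 3 samples of total RNA, and each sample was measured on 1 array. The labels give neither the promoter of the transgene nor the number of animals behind a sample, so the spread between samples may be technical. No probe set was named for Hoxc13, so the overexpressed gene could not be checked on these arrays.

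Imprinted genes are transcribed from only 1 of the parental copies, and which copy is used is set by DNA methylation laid down in the germ line. Many of them act on growth before and shortly after birth, and their transcripts decline together as juvenile growth slows. Plagl1, also known as Zac1, is expressed from the paternal copy and its protein can activate other imprinted genes, among them Igf2, H19, Dlk1 and Cdkn1c. Igf2, Dlk1, Peg3, Mest and Ndn are likewise read mainly from the paternal copy, and H19, Igf2r, Cdkn1c and, in most tissues, Grb10 from the maternal copy. In skin such transcripts are known mainly from mesenchymal cells, muscle and young fat, all of which whole skin contains.

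The DNA that the Plagl1 protein is described to bind is rich in runs of G, either as the palindrome GGGGCCCC or as the direct repeat GGGGNNNNNNGGGG. Both were searched on both strands in the 250 bases before the start of each entry of a promoter set taken from RefSeq (GRCm38.p6). The set held 14 entries for 8 of the members, and H19 and Cdkn1c were not searched. The palindrome was in 1 member entry, that of Peg3, against 0.889% of all 32851 entries. The direct repeat was in 4 entries of 3 members, Plagl1, Igf2 and Dlk1, against 8.66% of all entries. The 250 bases of these entries were 70.4% G and C for Plagl1, 68.8% and 66.0% for Igf2 and 54.8% for Dlk1. The median over all entries was 52.4%, and the part of base composition in the matches was not tested. No match of one motif overlapped a match of the other in a member. The stretches are shown because these genes are those whose levels are compared with Plagl1 below. Capitals mark the matches, which are descriptions of letters and not of binding, and a run of C is the same motif on the other strand.

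Plagl1, chr10:13090593-13090639, plus strand: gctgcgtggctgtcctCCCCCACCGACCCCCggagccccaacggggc
Igf2, chr7:142658846-142658891, minus strand: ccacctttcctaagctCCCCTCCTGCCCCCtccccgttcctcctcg
Igf2, chr7:142657713-142657746, minus strand: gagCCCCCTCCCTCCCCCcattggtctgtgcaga
Dlk1, chr12:109452683-109452729, plus strand: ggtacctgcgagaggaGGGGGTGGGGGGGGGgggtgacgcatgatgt
Peg3, chr7:6730597-6730636, minus strand: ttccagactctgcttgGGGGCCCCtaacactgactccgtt

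The arrays were not of like quality. The 3' over 5' ratio of Gapdh, a measure of how much of the 5' end of transcripts is missing, lay between 0.894 and 0.958 on the FVB arrays and was 2.22, 9.58 and 2.19 on the GC13 arrays. The same ratio for actin was between 1.16 and 1.36 in FVB and was 1.26, 3.80 and 1.43 in GC13. GC13 replicate 2, with the Gapdh ratio of 9.58, stood apart from its group on both. The members' log2 fold changes are therefore given with and without it. The Y-linked gene Eif2s3y was at 143 on that array and at 3.25 and 4.60 on GC13 replicates 1 and 3, against 69.4 to 98.9 in FVB. The Gapdh ratio therefore moved with the line, whereas by actin only GC13 replicate 2 stood apart. Eif2s3y, a sign of the balance of the sexes, was low on GC13 replicates 1 and 3 only. Without GC13 replicate 2 the log2 fold change was -3.85 for Eif2s3y and -1.04 for Uty, a further Y-linked gene. The sex-linked gene Xist was at -0.06 in that fit. The part of RNA quality and of the sexes in the differences below was not tested. In whole skin, fewer cells of a type and less RNA per cell cannot be told apart. Intensities below are the deposited linear values, and log2 fold changes (GC13 minus FVB) come from a limma fit on median-centred log2(intensity + 2) values with their standard error (SE).

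Plagl1 was brighter in GC13 on both of its probe sets. The brighter one, 92502_at, stood at 88.4, 82.4 and 83.3 on the FVB arrays and at 231, 166 and 194 on the GC13 arrays. The groups lay far apart, with the lowest GC13 array at about the double of the highest FVB array. The FVB mean was 84.7 ± 3.21 (SD, n = 3) and the GC13 mean 197 ± 32.5 (SD, n = 3). On the log2 scale the fitted difference was 1.26 (SE 0.20). With all arrays this was the largest positive difference among the members, but Dlk1 was ahead without GC13 replicate 2 (1.38 against 1.28) and Ndn 101059_at without GC13 replicate 3 (1.46 against 1.34). The second probe set, 92501_s_at, was dimmer, at 22.5, 33.5 and 30.8 on the FVB arrays and at 43.9, 33.8 and 56.3 on the GC13 arrays. Its groups were parted only by the narrow step from 33.5 to 33.8, and its log2 fold change was 0.66 (SE 0.22). Without GC13 replicate 2 the log2 fold changes were 1.28 and 0.74, so the difference was no smaller without that array. The other members of the Plag family, Plag1 and Plagl2, had no probe set named for them.

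**Figure D1:**
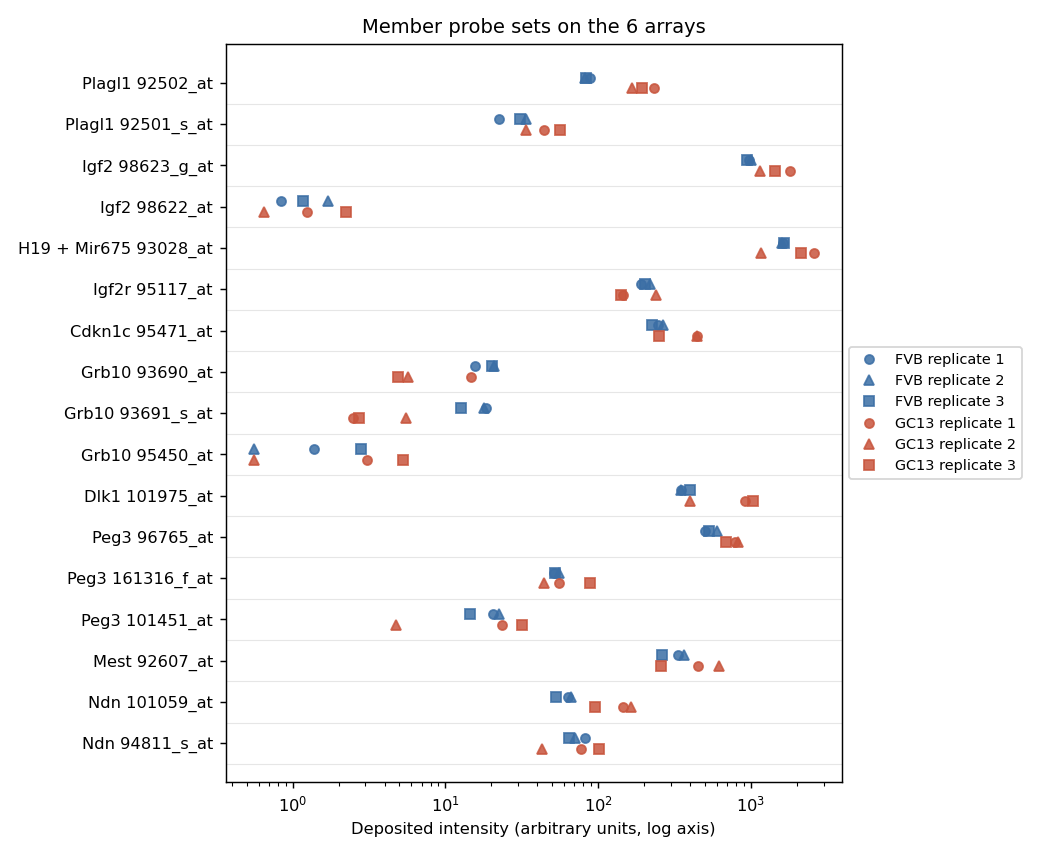
Deposited intensity (arbitrary units, log axis) of the 17 member probe sets, 1 point per array, with FVB in blue, GC13 in red and a marker shape for each replicate. The GC13 points of Plagl1 92502_at, from 166 to 231, all lie above its FVB points, from 82.4 to 88.4, while GC13 replicate 2 (triangle) often lies away from the other GC13 arrays.

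Igf2, the fetal growth factor that signals through the type 1 IGF receptor, stood at 979, 1001 and 939 on the FVB arrays and at 1809, 1149 and 1430 on the GC13 arrays on probe set 98623_g_at. Every GC13 array lay above every FVB array, and the log2 fold change was 0.64 (SE 0.21), or 0.70 without GC13 replicate 2. Its second probe set, 98622_at, was between 0.648 and 2.24 on all arrays and was left out as one of the dimmest 25% of probe sets, so it bears on nothing. Igf2r, the receptor that takes Igf2 to the lysosome and so clears it, stood at 191, 217 and 202 on the FVB arrays and at 144, 240 and 141 on the GC13 arrays. Its GC13 arrays fell on either side of FVB, with replicate 2 above and replicates 1 and 3 below. The log2 fold change of Igf2r was -0.18 (SE 0.31) with all arrays and -0.53 without GC13 replicate 2, and it turned to 0.03 without GC13 replicate 3.

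H19 encodes a long noncoding RNA that shares its enhancers with Igf2 on chromosome 7 and is read from the opposite parental copy. It is the host transcript of 2 mature microRNAs, whose RefSeq sequences (GRCm38.p6) are shown because the array annotation ties Mir675 to this probe set. Capitals mark the seed, bases 2 to 8 from the 5′ end, and the 2 seeds differ.
mmu-miR-675-5p: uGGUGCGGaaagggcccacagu
mmu-miR-675-3p: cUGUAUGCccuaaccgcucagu

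The array measured long RNA and not these mature forms. The H19/Mir675 probe set was among the brightest of the members, at 1628, 1594 and 1647 on the FVB arrays and at 2581, 1161 and 2141 on the GC13 arrays. Replicates 1 and 3 of GC13 lay above FVB and replicate 2 lay below it. The log2 fold change was 0.27 (SE 0.26) with all arrays and 0.51 without GC13 replicate 2. In deposited intensity, replicate 1 of GC13 was at 1.57 times and replicate 3 at 1.24 times replicate 2 for Igf2, against 2.22 times and 1.84 times for H19/Mir675. After each array was centred on its median, replicate 2 of Igf2 (0.51 above the FVB mean on the log2 scale) was no longer below replicate 3 (0.48), whereas for H19/Mir675 it stayed the lowest (-0.22 against 0.32 for replicate 3).

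Among the members that hold back growth, Cdkn1c, which encodes the cyclin-dependent kinase inhibitor p57, stood at 247, 265 and 226 on the FVB arrays and at 444, 445 and 250 on the GC13 arrays. Replicates 1 and 2 of GC13 were clearly above FVB, while replicate 3 lay within the FVB range. The log2 fold change was 0.65 (SE 0.32), and it ran from 0.41 to 1.0 when 1 array was left out, with the lowest value without GC13 replicate 2. Grb10, which encodes an adaptor that dampens insulin and IGF receptor signalling, had lower values in GC13 on its brighter probe sets. Its probe set 93690_at stood at 15.5, 20.9 and 20.1 on the FVB arrays and at 14.7, 5.73 and 4.92 on the GC13 arrays. Probe set 93691_s_at stood at 18.4, 18.0 and 12.7 on the FVB arrays and at 2.47, 5.51 and 2.71 on the GC13 arrays. On both the groups did not overlap, though on 93690_at replicate 1 of GC13 was close to FVB. Their log2 fold changes were -1.03 (SE 0.35) and -1.68 (SE 0.32), but at such low intensities they shrank to -0.30 and -0.40 with a pseudocount of 32. They were -0.97 and -2.01 without GC13 replicate 2. The third, 95450_at, was between 0.555 and 5.28 and was among the dimmest 25% that were not tested.

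Dlk1, a transmembrane protein related to the Notch ligands that keeps preadipocytes from maturing, stood at 350, 348 and 398 on the FVB arrays and at 914, 399 and 1028 on the GC13 arrays. Replicates 1 and 3 were more than double the FVB level, and replicate 2 was at the top of the FVB range. The log2 fold change was 1.06 (SE 0.30), and 1.38 (SE 0.15) without GC13 replicate 2. Meg3, the maternally expressed noncoding RNA gene beside Dlk1, stood at 138, 140 and 165 on the FVB arrays and at 295, 77.1 and 256 on the GC13 arrays on its brighter probe set. Its GC13 arrays thus also had replicate 2 the lowest, here below FVB, and on a further tested probe set the log2 difference was -0.16, or 0.46 without that array.

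Mest, which encodes an alpha/beta hydrolase-fold protein, stood at 332, 363 and 261 on the FVB arrays and at 450, 622 and 256 on the GC13 arrays. Its groups overlapped, and the log2 fold change of 0.47 (SE 0.39) was 0.08 without GC13 replicate 2. Ndn encodes necdin, a growth suppressor of the MAGE family, and stood at 63.8, 66.9 and 53.4 on the FVB arrays and at 146, 163 and 95.0 on the GC13 arrays on probe set 101059_at. There every GC13 array lay above FVB, with a log2 fold change of 1.15 (SE 0.31), or 0.90 without GC13 replicate 2. The other Ndn probe set, 94811_s_at, of similar brightness, stood at 81.4, 70.2 and 64.9 on the FVB arrays and at 76.8, 43.2 and 101 on the GC13 arrays, with a log2 fold change of 0.03 (SE 0.27), or 0.27 without GC13 replicate 2. The 2 probe sets of Ndn therefore disagreed.

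Peg3, a large zinc finger gene, had 3 probe sets of unequal brightness. On the brightest, 96765_at, it stood at 499, 602 and 534 on the FVB arrays and at 791, 828 and 689 on the GC13 arrays, all GC13 arrays above FVB, with a log2 fold change of 0.57 (SE 0.23). Probe set 161316_f_at stood at 51.3, 55.3 and 52.5 on the FVB arrays and at 55.3, 44.0 and 88.1 on the GC13 arrays. Probe set 101451_at stood at 20.5, 22.5 and 14.4 on the FVB arrays and at 23.5, 4.72 and 31.9 on the GC13 arrays. The dimmer ones overlapped between the groups, with log2 fold changes of 0.24 (SE 0.23) and -0.14 (SE 0.49). Without GC13 replicate 2 the values were 0.42, 0.36 and 0.48, so the dimmest turned its sign.

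**Figure D2:**
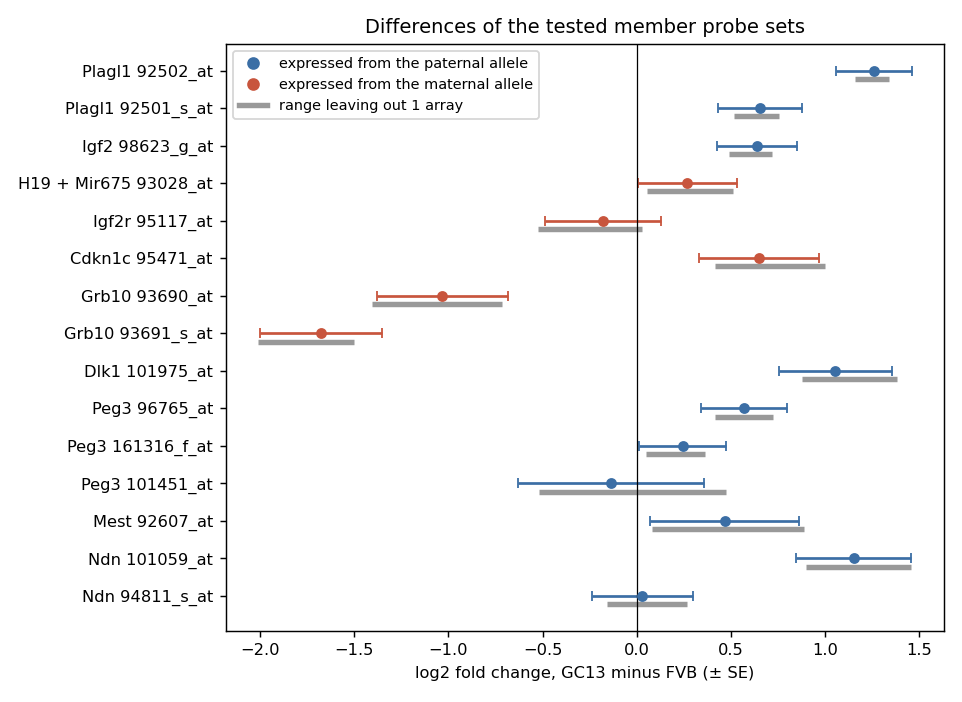
Log2 fold change (GC13 minus FVB, dot, with its SE as the error bar) of the 15 tested member probe sets, coloured by the parental copy the gene is read from, with grey bars for the range over the 6 fits that each leave out 1 array. Plagl1 92502_at keeps between 1.16 and 1.34, whereas Igf2r, Peg3 101451_at and Ndn 94811_s_at cross 0.

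Over all members, 15 of 17 probe sets passed the filter on low values and none of them passed the limma test at an adjusted p of 0.05 over 9316 probe sets, of which 0.472% passed, 0.0859% with higher values in GC13 and 0.386% with lower ones. At an unadjusted p under 0.05 there were 8 member probe sets, against 15.5% of all tested. The 3 GC13 intensities all lay above the 3 FVB ones on 6 of the 15, a pattern seen on 10.6% of all tested probe sets, and all below on 2, against 12.3%. In either direction the groups did not overlap on 8 of the 15, against 22.9%. These shares are given as background only, because the members were chosen in view of this comparison. Log2 fold changes were above 0 on 11 of 15 probe sets, with a median of 0.47, against 57.4% and a median of 0.08 over all tested probe sets. Without GC13 replicate 2, 3 member probe sets passed (Plagl1 92502_at, Dlk1 and Grb10 93691_s_at), in a fit where 14.8% of all probe sets passed.

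With 1 probe set per gene, the brightest, the members read from the paternal copy had log2 fold changes above 0 for 6 of 6 genes, with a median of 0.85. The members read from the maternal copy had 2 above 0 and 2 below, with a median of 0.04. Over all tested genes 56.9% lay above 0. Without GC13 replicate 2 the members' counts stayed at 6 of 6 and 2 of 4, with Mest at only 0.08. The dimmer tested probe sets of the paternally read members ran from -0.14 (Peg3 101451_at) to 0.66 (Plagl1 92501_s_at) with all arrays. This split by parental copy was made after the values were seen, and H19/Mir675 is counted in it as maternal. Of the further imprinted genes with a well known parental copy, 3 of 4 paternally read genes and 6 of 9 maternally read genes lay above 0, with medians of 0.44 and 0.12. Without GC13 replicate 2 these further genes had 2 of 4 and 5 of 9 above 0, with medians of 0.31 and 0.11. Whether the copies differed was not tested in either set.

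The GC13 arrays scattered far more than the FVB arrays. The coefficient of variation within a group had a median of 9.57% in FVB and of 36.7% in GC13 over the tested member probe sets, and it was higher in GC13 on 14 of 15. Over all tested probe sets the medians were 10.3% and 30.0%, so the wider scatter was general. The members did not share 1 direction of scatter. GC13 replicate 2 lay below the mean of the other GC13 arrays for Plagl1, Igf2, H19/Mir675, Dlk1 and Grb10 and above it for Igf2r, Cdkn1c, Peg3, Mest and Ndn, on the brightest probe sets. The distance was 1.16 for Mest, 1.03 for Igf2r and 0.75 for Ndn on the log2 scale, and -0.99 for Dlk1 and -0.73 for H19/Mir675. For Plagl1 it was -0.06.

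**Figure D3:**
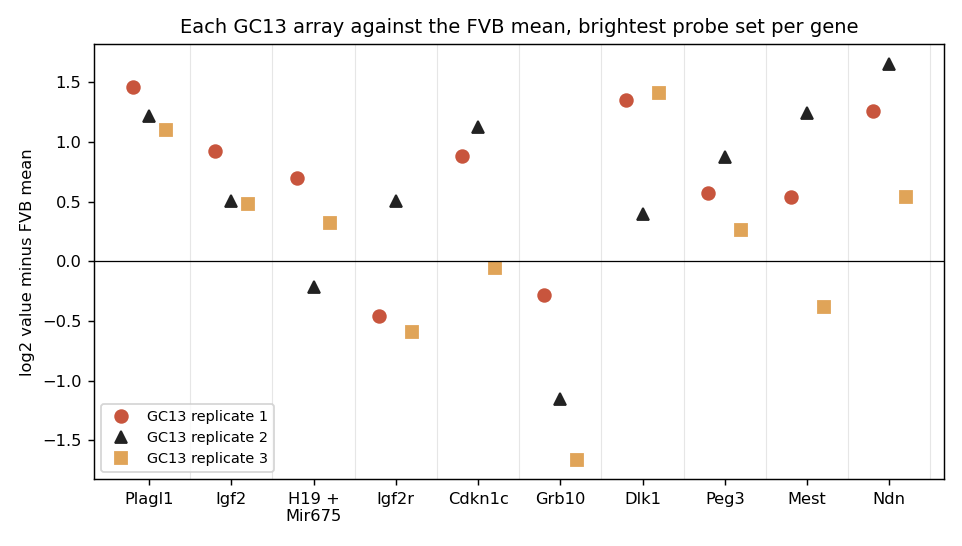
Log2 value of each GC13 array minus the FVB mean for the brightest probe set of each gene, with a marker shape and colour for each replicate. All 3 arrays lie above 0 for Plagl1, Igf2, Dlk1, Peg3 and Ndn and below 0 for Grb10, while replicate 2 (black triangle) is the highest for Mest, Igf2r, Cdkn1c, Peg3 and Ndn and the lowest for H19/Mir675 and Dlk1.

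Likeness to Plagl1 was described by Pearson's r over the 6 arrays on the centred log2 scale. The points fall into 2 groups of 3 arrays, so a high r mostly restates a difference between the groups, and no test is given. Among the members Igf2 was the most alike (r = 0.960), then Ndn (0.889), Dlk1 (0.842), Peg3 (0.840), Cdkn1c (0.731), H19/Mir675 (0.532) and Mest (0.486). Igf2r (-0.264) and Grb10 (-0.677) ran the other way, and the second probe set of Plagl1 itself had 0.813. Over all genes with a tested probe set, 321 of 6866 had an r of at least 0.9. The 5 most alike were Chaf1a (a chromatin assembly factor subunit), Myadm (a membrane protein gene), Lars (the leucyl-tRNA synthetase), Eif2s3x (an X-linked translation initiation factor) and Asap1 (a GTPase-activating protein), with r between 0.993 and 0.995. Chaf1a, for example, stood at 49.4, 52.2 and 50.6 on the FVB arrays and at 74.4, 58.2 and 71.9 on the GC13 arrays, a smaller difference than that of Plagl1.

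Of 64 other imprinted genes listed, 34 had a probe set and 27 were tested. None passed, and 3 of the 27 had an unadjusted p under 0.05, against 15.5% of all tested probe sets. Of the 27, 19 lay above 0, against 56.9% of all tested genes, with a median of 0.18. The 3 with the smallest p were Sgce, Gnas and Nnat. Sgce, which encodes epsilon-sarcoglycan, stood at 82.0, 79.1 and 80.3 on the FVB arrays and at 141, 99.95 and 156 on the GC13 arrays. Gnas, the gene of the stimulatory G protein alpha subunit, from a locus with several imprinted transcripts, stood at 2137, 1893 and 2063 on the FVB arrays and at 4152, 2399 and 3156 on the GC13 arrays. Nnat, which encodes neuronatin, stood at 75.4, 63.9 and 61.3 on the FVB arrays and at 19.9, 45.7 and 16.7 on the GC13 arrays. Sgce and Gnas were thus above FVB on every GC13 array and Nnat below (22.9% of all tested probe sets had groups that did not overlap), with log2 fold changes of 0.75, 0.71 and -1.28. Without GC13 replicate 2, 6 of the 27 passed, with Gnas, Meg3, Sgce, Slc38a4 and Th higher and Nnat lower, in the fit where 14.8% of all probe sets passed. In that fit 15 of the 27 lay above 0, with a median of 0.11.

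The genes around Igf2 signalling did not run together. Of 10 tested genes of the IGF axis outside the members none passed, 6 lay above 0 and 4 below, and the median was 0.02. Igf2bp1, which encodes a protein that binds Igf2 messenger RNA, stood at 6.73, 7.48 and 4.51 on the FVB arrays and at 16.2, 9.92 and 25.9 on the GC13 arrays, all dim, with a log2 fold change of 1.24 (SE 0.29). The binding protein genes Igfbp3 and Igfbp4 had log2 fold changes of 0.92 and -0.64. Further probe sets of both gave 0.08 and 0.38. Igf1 was at 0.01 on its brightest probe set, the one counted in the median, and at 0.96 on another. Without GC13 replicate 2 these values of Igf1 were 0.32 and 0.70. Without GC13 replicate 2, where 14.8% of all probe sets passed, Igf2bp1 (1.45) and Igfbp3 (0.73) were past the threshold, 7 of 10 genes lay above 0, and the median was 0.20.

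Among cell cycle inhibitors other than Cdkn1c, none of 5 tested genes passed, and the median was -0.30. Cdkn1a, the gene of p21, which Plagl1 has been reported to activate, stood at 299, 286 and 355 on the FVB arrays and at 179, 161 and 191 on the GC13 arrays. All GC13 arrays were below FVB, the opposite side to Plagl1, whereas Cdkn1c overlapped between the groups. The log2 fold change of Cdkn1a was -0.74 (SE 0.20), and its other probe set had -1.74. Cdkn2c had 0.39 and Cdkn2d -0.38. Of 6 tested genes reported as further Plagl1 targets, Cdkn1a among them, none passed, 4 lay above 0, and Pparg and Socs3 had 0.31 and 0.20. A further probe set of Socs3 had -0.58. Pparg and Socs3 turned to -0.07 and -0.11 without GC13 replicate 2, and 1 of the 6 lay above 0. In that fit, where 14.8% of all probe sets passed, Cdkn1a was past the threshold at -0.77, and the median of the 5 inhibitors was -0.67.

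Regulators of imprints and of the H19/Igf2 locus were tested for 5 of the 12 genes listed. None passed at the adjusted or at the unadjusted threshold, 4 lay above 0, and the median was 0.23. The maintenance DNA methyltransferase gene Dnmt1 stood at 306, 319 and 369 on the FVB arrays and at 464, 310 and 471 on the GC13 arrays, overlapping between the groups, with a log2 fold change of 0.38 and of -0.53 on a further probe set. Dnmt3a, a de novo DNA methyltransferase, and Trim28, a corepressor that protects imprints, had log2 fold changes of 0.37 and 0.23. Dnmt1, Dnmt3a and Trim28, without GC13 replicate 2, were at 0.48, 0.31 and 0.47, and none of the 5 genes passed.

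**Figure D4:**
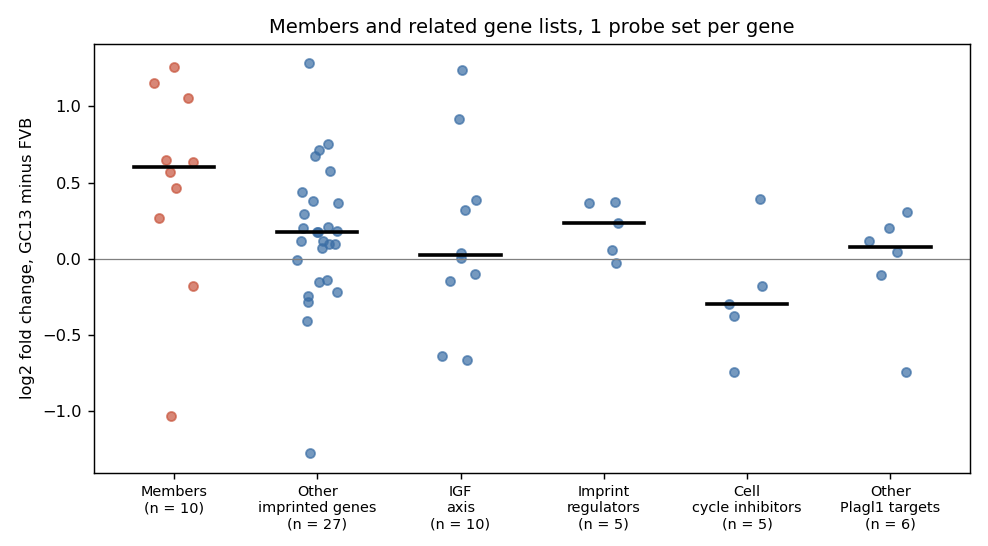
Log2 fold change (GC13 minus FVB) of the members and of 5 related lists, 1 point per gene at its brightest tested probe set, with a black bar at the median and horizontal jitter. The medians are 0.60 for the 10 members, 0.18 for 27 other imprinted genes, 0.02 for the IGF axis, 0.23 for imprint regulators, -0.30 for cell cycle inhibitors and 0.08 for other Plagl1 targets.

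Summed intensities of several marker lists also moved with the line, although of all their genes 1, the hair follicle keratin gene Krt72, passed the test. For 12 dermal fibroblast and matrix genes the sum was 11711 to 12589 in FVB and 14682 to 19217 in GC13, with 12 of 12 genes above 0. For 17 skeletal muscle genes it was 3275 to 3351 in FVB and 3665 to 4067 in GC13, with 13 of 16 tested genes above 0. For 8 adipocyte genes it was 4009 to 4141 and 4496 to 5248, with 7 of 8 above 0, and for 8 endothelial genes 630 to 762 and 873 to 1145, with 6 of 8 above 0. In these 4 lists the lowest GC13 sum exceeded the highest FVB sum. On their brightest probe sets the same held for Plagl1, Igf2, Peg3, Ndn and, narrowly, Dlk1, and it held on 10.6% of all tested probe sets. Such sums weigh the brightest genes most. The median adipocyte gene on GC13 replicate 3 was only 0.01 above the FVB mean on the log2 scale. Median log2 fold changes were 0.63 for dermal matrix, 0.29 for muscle, 0.31 for adipocyte and 0.39 for endothelial genes. In the same order, the highest single values were 1.10, 1.04, 1.01 and 1.02, and the lowest 0.12, -1.20, -0.32 and -0.65.

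Other lists were lower in GC13 or overlapped. The sum of 11 hair follicle genes was 14608 to 15317 in FVB and 11693 to 14274 in GC13, with 3 of 11 above 0, and that of 6 melanocyte genes was 1014 to 1079 and 529 to 818, with 0 of 6 above 0. Sums of 8 keratinocyte genes were 5054 to 5357 and 5200 to 8773, and of 3 erythroid genes 1781 to 1839 and 989 to 2302. Those of 7 macrophage and leukocyte genes were 485 to 522 and 411 to 498, and all 3 lists overlapped. For keratinocyte and erythroid genes the overlap came from GC13 replicate 2 alone. The keratinocyte sum was 5200 on that array and 8773 and 8331 on replicates 1 and 3. The erythroid sum was 2302 on it and 1157 and 989 on replicates 1 and 3. The medians without GC13 replicate 2 were 0.74 for dermal matrix, 0.30 for muscle, 0.22 for adipocyte and 0.37 for endothelial genes. They were -0.58 for hair follicle, -0.53 for melanocyte, -0.79 for erythroid, -0.02 for keratinocyte and -0.24 for macrophage and leukocyte genes. The part of these cell types in the members' differences was not tested.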

How the data were processed

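Total RNA of whole skin from 3 FVB and 3 GC13 samples was measured on single-sample Affymetrix arrays. The authors deposited linear intensities of 12488 probe sets, which had already been scaled to 1 common trimmed mean per array, judged by the values. The software behind them is not given in the sources used here. Summed intensities were between 1626361 and 1736141 per array, and the number of arrays limits the precision. The 66 control probe sets gave the 3' over 5' ratios and entered no test. The others were put on the log2(intensity + 2) scale, where 2 is the rounded 10th percentile, and centred on each array's median, because the medians differed by 0.345. The 25% with the lowest mean were left out, which left 9316. On this scale a fold change of a dim probe set is understated.

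Symbols are those of the platform's annotation, brought up to date by Entrez identifier in the RefSeq table of GRCm38.p6, in which 10817 of 10833 probe sets with 1 gene were found. A further 396 listed several genes and 1193 none. The test of GC13 against FVB was limma's (version 3.58.1, R 4.3.3), two-sided, with lmFit, eBayes, no replicate block and p-values adjusted by Benjamini-Hochberg across all 9316 probe sets, with calls made under 0.05. All member probe sets are named, and from each related list the 3 genes with the smallest p. Meg3, Igf1, Plag1, Plagl2, the motifs, the genes named without GC13 replicate 2, and the split by parental copy were added after the values were seen. The members and lists were chosen with earlier results of these data known. Same-numbered samples are not stated to share a litter or day, and the numbers were not taken as pairs. The alternatives were other pseudocounts (1, 16 and 32), filters, scalings, a variance trend, array weights, each array left out, and a replicate block.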

Additional observations from a re-analysis of the deposited data

How the results depend on the processing

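With 3 arrays a group, calls depended on the settings more than directions did. The count of all probe sets past the threshold, 44 of 9316, was 83 and 119 with pseudocounts of 16 and 32, 23 with the lowest 50% left out, 28 with the deposited scaling, 3850 with array weights, and between 0 and 1379 when 1 array was left out, the highest without GC13 replicate 2. The count of member probe sets past it, 0 of 15, was 1 with pseudocounts of 16 and 32, with the lowest 50% left out and with a variance trend, 10 with array weights, and between 0 and 3 when 1 array was left out. The brighter Plagl1 probe set was the 1 that passed in those fits, with log2 fold changes of 1.12, 1.0, 1.26 and 1.26, and it also passed with array weights at 1.41. Leaving out 1 array gave it between 1.16 and 1.34, and its limma adjusted p was 0.0522 with all arrays, 0.0114 without GC13 replicate 2, and between 0.0972 and 0.306 with any other array left out. For the other imprinted genes the count of 0 of 27 was 9 with array weights, and between 0 and 6 when 1 array was left out. With the replicate block 78 probe sets passed, 1 of them a member (Grb10 93691_s_at). The deviations of same-numbered samples correlated at -0.07, 0.18 and 0.36. These values cannot decide whether the samples were paired, because no samples of unlike number were compared. Peg3 101451_at turned to 0.011 and 0.030 with pseudocounts of 16 and 32, to 0.23 with array weights, and ran from -0.52 to 0.48 when 1 array was left out. Ndn 94811_s_at turned to -0.044 with the deposited scaling and ran from -0.16 to 0.27 when 1 array was left out, and Igf2r ran from -0.53 to 0.026. The cause was not tested. All other comparisons of the 15 member probe sets with an alternative, out of 237 of which 9 turned, kept their direction. Signal over background is unknown and limits what the dim Grb10 probe sets and the dimmest Peg3 one can show.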
